A study of Mus musculus with 2 samples.

Results

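A splice junction is the gap that a sequenced RNA read leaves when it is laid on the genome and jumps from one exon to the next. The junctions described here are the 1274 of 492582 rows of the deposited mm9 junction table that lie on chromosomes 1 to 19, carry 0 for both of the flags named A and C, and have 10 or more reads in each of the counts named R1 and R2. The members were chosen on R1 and R2, so counts are given as a description. The meaning of both flags is not given in the sources used here. Flag A was read only as a label, and 99.7% of the spans of the 167435 flag A 1 junctions equal the length of an annotated mouse intron on the same chromosome and strand. The same spans made 1 base shorter or longer still equal some annotated length in 64.1% and 64.2%, so a length alone identifies no intron.

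The RNA came from the kidney of C57BL/6J mice, an inbred laboratory strain, at 8 weeks of age. The series holds 1 group with 2 libraries, numbered as biological replicates 1 and 2, and each library pooled tissue from male and female littermates. Polyadenylated RNA above 200 nt, depleted of ribosomal RNA, was read as stranded pairs of 76 nt. Both libraries carry the same donor label, the health state is unknown, and there is no second group to compare with.

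In splicing, the spliceosome recognises short sequences at the donor (left in the direction of transcription) and acceptor ends of an intron. Most mammalian introns begin with GT and end with AG, smaller classes begin with GC or with AT, and the exon base before the donor is most often G. When the bases at one edge of a gap repeat at its other edge, the same spliced RNA can be laid on the genome with the gap at more than 1 place. This property of gapped alignment matters for reading any junction table by coordinate.

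No genome or annotation of mm9 was used here. Each junction was instead compared by length with GENCODE M21. A junction was counted as length-matched when its span equals that of an annotated intron and a neighbouring flag A 1 junction has the length of the neighbouring intron at the exact length of the exon between them, with the junction allowed to lie up to 30 bases to either side of that place. The offset is the distance from the annotated place, negative toward the smaller genome coordinate. Gene names below rest on these lengths alone, and "no gene" means only that an end lay in no gene range placed by lengths. Such a range ends at the outermost placed introns, so first and last exons lie outside it. A gene without introns has no range.

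The length-matched junctions are best seen in their exon sequence. Below are the 15 bases before and after the annotated exon boundary of the member with the most reads at each offset, from GENCODE M21 transcripts (GRCm38), 5′ to 3′ along the RNA. Capitals mark the exon bases that the deposited coordinates put inside the gap. On the plus strand they close the upstream exon:
Rnaset2b, 1 base: aatacatggactatGgcccgatagagcaga
Dazap2, 2 bases: ccatgaacagcaaAGgtcaatatccaacac
Sod1, 3 bases: cacttcgagcagAAGgcaagcggtgaacca
Tmem94, 4 bases: cttctccagctCCAGgtgaacggcatgttg
Nt5m, 5 bases: ggccagacatCACAGgggctgagccacatc
Pmpcb, 6 bases: cacatggccTTCAAGggcactaaaaagagg
Entpd1, 7 bases: gccaaggaCATTCAGgtttcaagtggtggc

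On the minus strand a smaller coordinate is further along the RNA, so the capitals open the downstream exon:
Slc25a3, 1 base: tgttcgccatcttagGaggatgttctcgtc
Rnaset2a, 2 bases: aatacatggactatgGCccgatagagcaga
Itpr2, 3 bases: atgacggtgatgaagGCAcactctccccga
Tm2d1, 4 bases: cctcagggtgggacaATATatttgtaaaga

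Each sequence spans an exon to exon boundary of the named gene. On mm9 the plus-strand gaps lie at chr15:100446154-100447341 (Dazap2), chr16:90221172-90223021 (Sod1), chr11:115650342-115650553 (Tmem94), chr11:59688165-59689301 (Nt5m), chr5:21245939-21246296 (Pmpcb) and chr19:40800742-40801770 (Entpd1). The minus-strand gaps lie at chr10:90586451-90586659 (Slc25a3), chr6:146128875-146135958 (Itpr2) and chr4:98047379-98049756 (Tm2d1). In every plus-strand example the capitals end in G, and in those of 2 or more bases they end in AG. Tmem94 had 774 reads in R1 and 701 in R2, Nt5m 329 and 525, Pmpcb 218 and 242, and Entpd1 27 and 29. Itpr2, an inositol trisphosphate receptor, had 325 and 422, and Tm2d1 551 and 370. The Tm2d1 exon opens with AT, the bases that start a rare class of introns.

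Rnaset2a and Rnaset2b show both cases on 1 exon boundary. They are near-identical genes for a secreted and lysosomal ribonuclease, they lie on opposite strands of chromosome 17, and the 30 bases shown are the same in both. The Rnaset2b member (chr17:7188540-7189403, plus) had 1114 reads in R1 and 1572 in R2, and the Rnaset2a member (chr17:8334517-8335380, minus) had 1112 and 1567. Both span 864 bases. The gap took the last G of the upstream exon in the first and the first GC of the downstream exon in the second, so both were moved toward the smaller coordinate. Reads of the copies cannot be told apart from these counts, and the length match also fits the overlapping gene models Gm49721 and Gm49673.

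Of the 1274 junctions, 562 were length-matched (44.1%, 95% exact binomial interval 41.4 to 46.9), in 523 genes. They held 251889 of the 371820 reads of all members (67.7%). A single offset was found for 554, and 544 of these (98.2%) lay toward the smaller coordinate, 4 lay at the annotated place and 6 toward the larger coordinate. These counts are of members, and 1 intron can hold several. The 6 included members of Dazap2 (83 reads), Slc25a3 (43), Selenbp1 (31) and Selenbp2 (22). In each of these genes a left-placed member of the same span had far more reads. For the 550 with an offset other than 0, the annotated place itself was listed in the junction table in 0 cases. Junctions with flag A 0 and flag C 1 at the same read support gave another picture. Of those 5450, 1130 (20.7%) were length-matched, and 1095 of the 1124 with a single offset (97.4%) lay at the annotated place.

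The size of the offset differed by strand. On the plus strand, 204 of 338 (60.4%) lay 2 bases to the left, 58 lay 3 bases, 42 lay 1 base, 18 lay 4 bases and 8 lay 5 bases to the left. On the minus strand, 164 of 216 (75.9%) lay 1 base to the left and 37 lay 2 bases.

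**Figure D1:**
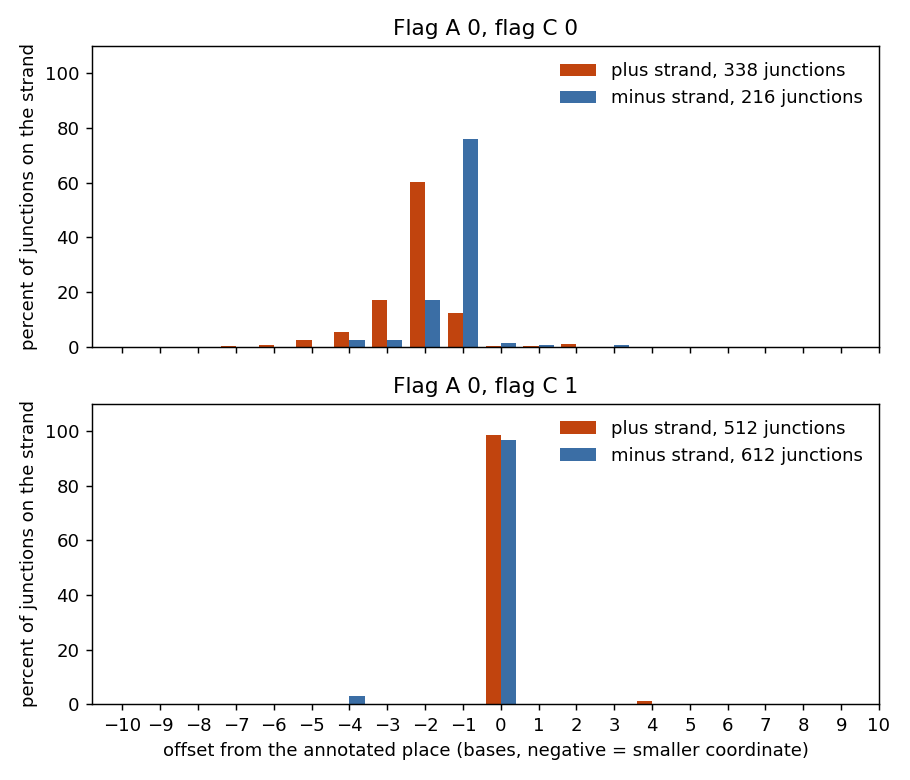
Bars give the percent of length-matched junctions on each strand (vertical axis) by offset from the annotated place in bases (horizontal axis, −10 to 10), for flag A 0, flag C 0 junctions above and flag A 0, flag C 1 junctions below. The upper panel is highest at −2 on the plus strand and −1 on the minus strand, and the lower panel at 0.

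The exon bases at the boundary were uneven. On the plus strand, the last exon base was G in 330 of 333 left-placed members, against 80.0% of 142661 annotated introns on that strand. The exon ended in AG in 294 (88.3%), against 55.1% of them. All 58 members with an offset of 3 bases and all 18 with an offset of 4 bases had an exon ending in AG. On the minus strand, the first base of the downstream exon was G in 194 of 211, A in 15 and C in 2. Of the annotated introns on that strand, 47.3% had G there. The members' exon opened with GT in 76 (36.0%, against 17.3% of 141237 annotated introns), GA in 52 (24.6%, against 12.9%), GC in 34 (16.1%, against 8.53%), GG in 32 (15.2%, against 8.68%) and AT in 9. The AT share of 4.27% was below the 9.64% of annotated introns. Of the 211 members, 164 lay 1 base to the left, where only the first base of the pair was in the gap. The GT, GA, GC and GG shares all contain the raised share of G as first base, so they are not separate results. A gap moved over exon bases leaves the RNA unchanged only if those bases recur at the intron's other end. The intron bases were not read here, so this was not tested.

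The junctions with flag A 1 and flag C 0, 251 at this support, had other exon bases at their boundaries. Of these, 228 of 229 with a single offset lay at the annotated place. The match is itself anchored on flag A 1 junctions, so this outcome was largely fixed in advance and is no contrast with the members. Their plus-strand upstream exons ended in G in 15 of 57 (26.3%, against 80.0% of annotated introns), and their minus-strand downstream exons opened with G in 8 of 171 (4.68%, against 47.3%). On the plus strand lay 59.3% of the members (756) and 25.5% of the flag A 1, flag C 0 junctions (64). That share was 50.3% for flag A 0, flag C 1 and 50.5% for flag A 1, flag C 1 junctions of this support.

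Most length-matched junctions with both neighbours had counts within 2-fold of the mean of those neighbours. Members needed 10 or more reads in R1 and in R2, and their neighbours did not. Low ratios beside weakly covered neighbours are therefore cut off by the choice of members. Where several pairs of annotated neighbours fitted, 1 pair was used, and it was not chosen as the one with the most reads. A neighbour may thus be a minor one, for members and for flag A 1, flag C 1 junctions alike. For the 428 with flag A 1 junctions matched on both sides, the member's count divided by the mean of both neighbours had a median of 0.963, with quartiles of 0.621 and 1.41. It lay within 2-fold in 299 (69.9%). For 76117 flag A 1, flag C 1 junctions with both neighbours, the median was 1.02, with quartiles of 0.685 and 1.5, and 74.2% lay within 2-fold. A count below 0.1 times that of the neighbours was seen for 10 members (2.34%) and 0.544% of the flag A 1, flag C 1 junctions. Among the 10 were members of Selenbp1 (31 reads), Selenbp2 (22) and Cyp2d26 (120). Each of these genes had another member of the same span and neighbours, with 5997, 3460 and 5789 reads, so these introns were counted more than once.

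**Figure D2:**
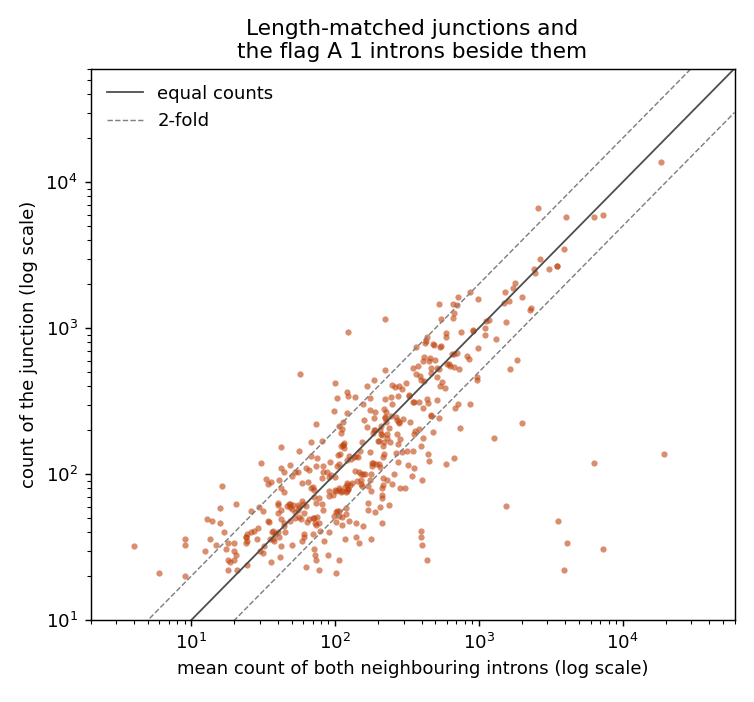
Each of 428 points is a length-matched junction, by its read count (vertical, log scale) and the mean count of 1 flag A 1 intron on each side (horizontal, log scale), with lines for equal counts and for 2-fold. Of the points, 299 lie between the dashed lines and 10 lie below 0.1 times their neighbours.

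Of the 10 junctions with the most reads, 8 were length-matched and all 8 lay to the left. The highest was in Slc25a3, the mitochondrial phosphate carrier (chr10:90586451-90586659, minus, span 209), with 13981 reads in R1 and 12514 in R2. The next among the length-matched ones was in Ndrg1, a gene induced by hypoxia and stress, with 7232 and 6500 reads in a 10877-base gap, between introns of 17491 and 19227 reads. Dazap2, the third of them, had 5979 and 5263 reads in a gap of 1188 bases, 2 bases to the left. All 3 were slightly higher in R1 than in R2 before scaling.

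The junction of Sdhd, which encodes a membrane anchor of succinate dehydrogenase, had 4993 reads in R1 and 6157 in R2. Sod1, the copper and zinc superoxide dismutase, had 2473 and 5023 reads at an offset of 3 bases. Cyp2d26, a cytochrome P450, had 2897 and 2892 reads between introns of 7370 and 5381. Of these, Sod1 was the least even between R1 and R2.

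Khk encodes ketohexokinase, which phosphorylates fructose, and is known for a pair of alternative exons. Its junction (chr5:31230887-31231891, plus) had 3139 reads in R1 and 3551 in R2, beside flag A 1 introns of 101 and 5097 reads. The member was thus close to the right neighbour used and far above the left one. Acss2, the cytosolic acetyl-CoA synthetase, was alike, with 787 and 799 reads between introns of 32 and 1947. Whether other annotated neighbours fit in these genes was not examined. The low left counts therefore need not be those of the main introns.

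Further length-matched junctions, chosen after their values were seen, lay in genes of metabolism and transport. Glul, the glutamine synthetase, had 1259 reads in R1 and 1726 in R2 between introns of 2579 and 2736. Sardh, the mitochondrial sarcosine dehydrogenase, had 1280 and 1257 reads between introns of 3729 and 2402. Slc19a1, the reduced folate carrier, had 1348 and 1188 reads between introns of 1888 and 2958. In these 3 genes the member carried reads on the order of the introns beside it.

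Mfn2, a mitofusin of the outer mitochondrial membrane, had 866 reads in R1 and 894 in R2, which is 2.04 times the mean of its neighbours. Aprt, the adenine salvage enzyme, had 887 and 759 reads, at 2.29 times. Slc2a2, the glucose transporter GLUT2 of the proximal tubule, had 631 and 911 reads, at 0.95 times, between unlike introns of 2741 and 505. Pkm (877 and 995 reads), the pyruvate kinase, stood at 1.08 times, also between unlike introns, of 533 and 2924. These ratios rest on the 1 pair of neighbours used for each gene, which need not be the main one. Of the 523 genes, 520 had a TPM value (a level scaled for transcript length and for depth) in the gene tables and 517 reached 1 TPM in both libraries, with medians of 19.7 in replicate 1 and 17.3 in replicate 2.

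The other 712 junctions (55.9%) were not length-matched, and held 32.3% of the reads. The search cannot find an intron without a fitting flag A 1 neighbour, or one whose length differs between mm9 and GRCm38. These members may therefore still include annotated introns. Their median count was 48, against 112 for the length-matched ones, and their median span 1305 bases, against 1025.5. Their spans ranged from 31 to 529593 bases, with 102 under 70 bases and 139 of 100000 bases or more. The length-matched spans ranged from 72 to 86018 bases. Over all members the median was 1155.5 bases, against 2467 for flag A 0, flag C 1, 811 for flag A 1, flag C 0 and 1186 for flag A 1, flag C 1. Spans under 50 bases made up 4.16% of the members and 0.147% of the flag A 0, flag C 1 junctions, and spans of 100000 bases or more made up 10.9% and 6.7%.

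**Figure D3:**
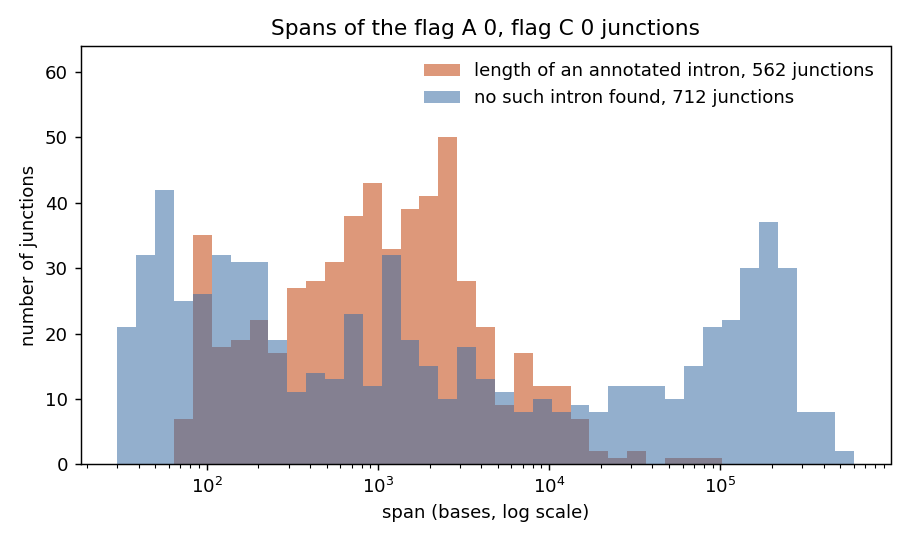
Bars give the number of junctions (vertical) by span in bases (horizontal, log scale), for the 562 length-matched junctions and the 712 others. The others extend below 72 bases and above 86018 bases, where no length-matched junction lies.

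An end was shared with a flag A 1 junction of the same strand by 80 members (6.28%, 95% exact binomial interval 5.01 to 7.75), at the donor alone in 40, at the acceptor alone in 39 and at both in 1. Counting ends within 1 base raised the share to 13.6%, and within 5 bases to 23.3%. Of the flag A 0, flag C 1 junctions, 4000 of 5450 (73.4%) shared an end and 1105 (20.3%) both. Of the 80, 2 were length-matched and 78 were among the 712 others. A member moved off its annotated place does not have the ends of that intron. The low number among length-matched members was therefore largely fixed by their offsets, and it also lowers the share over all members. The member with both ends shared lay in Abhd18 (chr3:40671622-40723299, plus, span 51678), with 12 reads in R1 and 20 in R2, and joined ends that no flag A 1 junction joins.

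Another set lay close to flag A 1 ends on both sides. Both ends were within 20 bases of flag A 1 ends in 139 members that matched no annotated intron, of which 55 shared an end exactly and 115 lay within 1 gene. Their gap was shorter than that between the near ends in 81, longer in 55 and equal in 3. A difference of 1 base was the most frequent, in 28 members each way. The highest, chosen after the values were seen, was in Commd6 (chr14:102036331-102039600, minus), with 529 reads in R1 and 806 in R2, whose left end lay 7 bases inside and right end 5 bases inside the near ends. Use1, which encodes a SNARE protein, had 280 and 512 reads with ends 7 and 6 bases inside. Immt, a subunit of the mitochondrial MICOS complex, had 275 and 405 reads with ends 3 and 12 bases inside. Igfbp7, a secreted IGF-binding protein, had 278 and 494 reads with both ends moved to larger coordinates, by 2 bases and by 1 base. All 4 had more reads in R2.

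Slc34a1, the sodium-phosphate cotransporter of the proximal tubule brush border, held 15 members with both ends in its gene range, none length-matched. Other members had only their right end in that range, some with a left end within 20 bases of a flag A 1 end. These are not among the 15, so the counts below leave them out. The TPM of Slc34a1 was 5821 in replicate 1 and 4317 in replicate 2, and its highest flag A 1 junction had 314551 reads. Counts of the 15 ran from 21 to 1092 and their spans from 34 to 3349 bases. The highest (chr13:55502692-55504025, plus, span 1334) had 555 reads in R1 and 537 in R2, which is 0.347% of the highest flag A 1 junction. Of the 15, 12 had an end within 20 bases of a flag A 1 end and 4 shared one. Aqp2, the vasopressin-regulated water channel of the collecting duct, had a member of 236 and 202 reads (chr15:99413591-99414262, plus), and Psap, the precursor of the lysosomal saposins, had one of 279 and 234 reads. Psap also had a length-matched member 1 base to the right of its annotated place, with 75 and 63 reads, 0.00712 times its neighbours. Within Slc34a1 and Psap these members thus had far fewer reads than the flag A 1 junctions they were set against.

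The shortest gaps lay mainly outside the gene ranges. Of the 102 under 70 bases, 83 had no gene and 19 lay within 1, and 0 had an end within 20 bases of a flag A 1 end. No gene was found for 511 of all 1274 members, and for 143 of the 562 length-matched ones. Having no gene is thus partly a limit of the ranges. The shortest span was 31 bases, seen in 3 members. The one on chromosome 4 (chr4:131912362-131912392, minus) had 238 reads in R1 and 272 in R2, and the ones on chromosomes 11 and 16 had 16 and 26 and 12 and 25. The most reads were at a 33-base gap inside the range of Peak1, a pseudokinase gene (chr9:56071575-56071607, minus), with 1540 in R1 and 2467 in R2. Peak1 itself stood at 5.67 and 5.62 TPM, and its highest flag A 1 junction had 86 reads, so the member was far above every flag A 1 junction in that range.

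Members also piled up at single places. Overlapping members of a strand formed 1043 loci, of which 943 held 1 member and 100 held the other 331. The fullest, inside the range of Efl1, a GTPase of ribosome assembly, held 18 members in 714 bases (chr7:89919737-89920450, plus), with 24 to 161 reads each and no flag A 1 end within 516 bases. The highest flag A 1 junction of Efl1 had 72 reads. A locus on chromosome 17 (chr17:39980350-39985372, plus) held 16 members with 1428 reads in R1 and 6466 in R2, and its nearest flag A 1 end was 267337 bases away. The third (chr16:11144068-11144285, plus) held 14 members in 218 bases with 1111 and 2320 reads. The last 2 had no gene, and both were higher in R2. The contig level at their member with the most reads was 4410 on chromosome 17 and 22600 on chromosome 16. What is transcribed at these 2 loci was not tested.

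The long gaps formed a set of their own. Of the 139 members of 100000 bases or more, none was length-matched, 80 had no gene at either end, 47 had a gene at 1 end, 11 had different genes at their ends and 1 lay in 1 gene. They held 14.4% of the reads. Over all 1274 members, 511 had no gene at either end. The highest (chr4:121870932-122132563, minus, span 261632) had 6803 reads in R1 and 7448 in R2. The next (chr12:34505011-34647728, minus, span 142718) had 2997 and 8352. The longest (chr7:17590689-18120281, minus, span 529593) had 31 and 33, and its left end lay 3 bases from a flag A 1 end in Ppp5c, which encodes a protein phosphatase. A second member from the same left end spanned 453929 bases with the same 31 and 33 reads.

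One long gap joined a pair of related genes. Selenbp2 and Selenbp1, paralogs for selenium-binding proteins, each had a left-placed member. The Selenbp2 gap (chr3:94501411-94501962, plus, span 552) had 1408 reads in R1 and 2052 in R2, and the Selenbp1 gap (chr3:94741314-94741874, plus, span 561) had 2582 and 3415. Another member (chr3:94501411-94741874, plus, span 240464) began at the left end of the first and closed at the right end of the second, with 2138 and 2773 reads. Each of the 3 recurred 4 bases further right, with 10 and 12, 14 and 17, and 12 and 15 reads. The gene levels were unlike the junction counts, at 605 and 532 TPM for Selenbp1 and 20.6 and 14.9 TPM for Selenbp2. Whether the reads of all 3 arose from 1 gene was not tested.

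The table's column 9, a whole number that never exceeds column 7 (the sum of R1 and R2) and whose meaning is not given in the sources used here, set the long gaps apart. Column 9 divided by column 7 had a median of 0.618 over all members. It fell below 0.3 in 119 members (9.34%), against 1.56% of flag A 0, flag C 1 and 0.708% of flag A 1, flag C 1 junctions. Of the length-matched members 5 (0.89%) were below 0.3, of the other members of 10000 to under 100000 bases 31 of 105 (29.5%), and of those of 100000 bases or more 72 of 139 (51.8%). The gap on chromosome 12 had 14 in column 9 for 11349 in column 7, and the highest one on chromosome 4 had 715 for 14251. The long Selenbp gap stood higher, at 1900 for 4911.

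**Figure D4:**
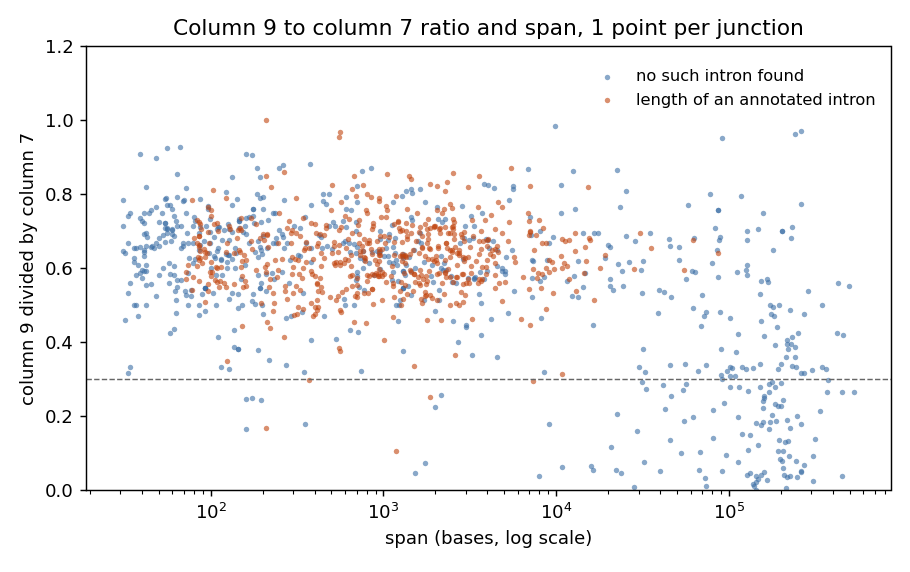
Each point is 1 of the 1274 junctions, by its ratio of column 9 to column 7 (vertical) and its span in bases (horizontal, log scale), coloured by the length match. The dashed line marks 0.3, with 72 of the 139 junctions of 100000 bases or more below it.

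Some members had the same values at several places. Span, R1, R2 and column 9 were identical in 15 members forming 6 sets (1.18%), against 0.807% of flag A 0, flag C 1 junctions. A 93-base gap with 21 and 23 reads was listed on chromosomes 2, 9, 12 and 15, the first inside Pnpla7, a lysophospholipase gene. A 1305-base gap stood on chromosomes 4, 9 and 13 with 11 and 11 reads, and on chromosomes 8 and 9 with 17 and 32. Such sets cannot be told apart from reads of 1 place listed more than once, so these 15 members are not 15 separate observations.

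Contigs, the stretches of covered genome in a separate deposited table on mm9, come from the same series as the junction reads. Reads on both sides of a gap were needed to choose a member, so contigs at its ends are a description and not an independent readout. A contig of the same strand touched both ends in 1231 members (96.6%), 1 end in 30 and neither in 13. This was 86.9% for flag A 0, flag C 1 and 99.6% for flag A 1, flag C 1 junctions. Of the length-matched members 560 of 562 had both, and of the gaps of 100000 bases or more 123 of 139. The contig level at the weaker end had a median of 3.95 for the members with both, and 2.84 for flag A 1, flag C 1 junctions.

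No label assigns R1 and R2 to a replicate, and an assignment from gene levels was not attempted. R1 was scaled by 1.17, the ratio of the totals over flag A 1 junctions. After scaling, 109 members (8.56%) were 2-fold or more higher in R2, where the share over all 104714 junctions of this support was 4.54%. Higher in R1 were 74 (5.81%), where that share was 2.97%. The choice of members used these counts, so nothing is read from the shares. The length-matched members past 2-fold were 26 (4.63%) and 14 (2.49%), the others 83 (11.7%) and 60 (8.43%), and the gaps of 100000 bases or more 25 (18.0%) and 7 (5.04%). With 1 value each for R1 and R2, no test was made.

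The largest ratio toward R2 was at chr6:3150914-3151057 (plus), with 19 reads in R1 and 233 in R2, 10.4-fold after scaling. A gap that starts 1 base later and has the same end had 17 and 111. Next came chr17:39984708-39984994 (plus), with 13 and 130 reads, 8.52-fold. Its locus is the chromosome 17 one above, whose main member (chr17:39983466-39984994) had 802 and 4901, and chr17:87231037-87231100 had 18 and 97. Toward R1, a 44-base gap in Pigq (chr17:26078824-26078867, minus) had 55 and 13 reads, 4.97-fold. A 54438-base gap from the range of Adgrb2 to that of Col16a1, a collagen gene, had 38 and 10, and a 110-base gap at chr11:7113629-7113738 had 49 and 13. The other 2 were chr7:26034687-26035802 with 40 and 11, and chr2:180445009-180628717 with 53 and 15. None of these was length-matched.

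**Figure D5:**
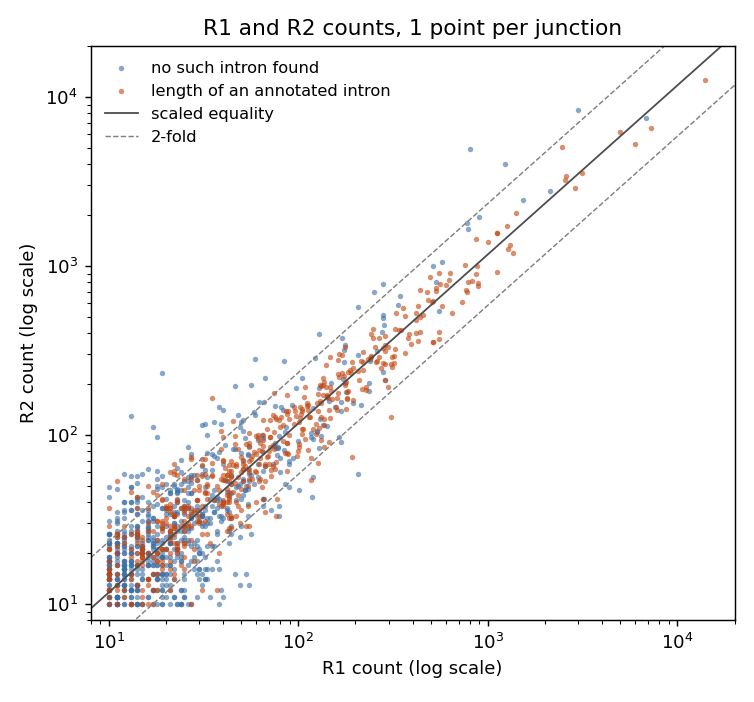
Each point is 1 of the 1274 junctions, by its read count in R1 (horizontal) and in R2 (vertical), both on log scales, with lines for scaled equality and for 2-fold. Above the upper dashed line lie 109 junctions and below the lower one 74.

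At the threshold, 105 members had 10 as the smaller of R1 and R2, and 113 rows with both flags at 0 had 9. Just inside, with 10 and 10 reads, lay a 179972-base gap on chromosome 10, a 448-base gap in Eef2 that shares its left end with a flag A 1 junction, the length-matched junction of Uggt2 and a 34-base gap on chromosome 19. Copz2, length-matched 1 base to the left, had 11 and 10. Just outside lay a 220-base gap on chromosome 11 with 42 and 9, a 128365-base gap on chromosome 15 with 9 and 38, and a 33-base gap at chr9:56071581-56071613, next to the Peak1 gap, with 9 and 35. A 459279-base gap on chromosome 1 had 9 and 34, and a 2780-base gap on chromosome 19 had 33 and 9. Both sides of the threshold thus held short and long gaps.

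As for depth, R1 summed to 25232776 and R2 to 29635475 reads over all junctions, and the gene tables held 67252609 and 87330097 expected counts in replicates 1 and 2. The kidney markers ran from 22.4 TPM (Nphs1, podocytes, replicate 2) to 5821 TPM (Slc34a1). Of the markers of other tissues, Ucp1 (brown fat) stood at 196 and 246 TPM in replicates 1 and 2, Acta1 (skeletal muscle) at 0.93 and 430, Cd79a (lymphocytes) at 1.55 and 17.95, and Cyp11b1 (adrenal gland) at 4.51 and 0.04. Alb (liver) stood at 8.19 and 7.1 and Upk1b (urothelium) at 5.23 and 3.28. Their part in the junction counts was not tested. In a bulk sample, fewer cells of a type and less RNA per cell cannot be told apart.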

How the data were processed

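The deposited junction table gives a count per junction in column 7, the sum of R1 and R2, per the values. Per the file headers, the authors' gene tables hold an expected count, which need not be whole, and TPM on mm10 with annotation M4. The junction and contig tables are on mm9. Each deposited contig has a signal level, whose normalization is not given. Both mm9 tables hold a deposited score and a fraction between 0 and 1 of unstated meaning, and the fraction (column 8) served only as an alternative. The aligner is not given in the sources used here.

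Printed positions count from 1. Introns, exons, symbols and boundary sequences came from GENCODE M21 (GRCm38). Only lengths and names were taken from it, and no position was converted. The length match, with a window of 30 bases, was devised after the data were seen. A gene range needed 2 consecutive intron, exon and intron lengths unique to 1 gene (13022 genes), with exons of up to 5000 bases. The recovery of known offsets was tested on simulated data, which does not measure false matches; their rate among flag A 0 junctions was not tested. A contig counted as touching within 1 base. Intervals (95%, Clopper-Pearson) cover counting error only. Members of 1 locus or of 1 set of identical values are not independent.

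The members and lists were chosen with earlier results of these data known. Named were the 10 highest counts, the longest and shortest spans, the 5 largest ratios of R1 to R2 each way, the members around the threshold, the 3 fullest loci and the member with both ends shared; all others were chosen after their values were seen. Python 3.11.15, pandas 2.3.3, numpy 2.4.6 and scipy 1.17.1 were used. No test was made, because 1 group has no contrast.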

Additional observations from a re-analysis of the deposited data

How the results depend on the processing

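Each summary was recomputed under other choices of members. A value was called moved when it left the 95% interval of the reported value, or by more than 1.5 times for the number of members. The alternatives on the length match were chosen after the data were seen. No paired analysis was possible because the series has 1 group, and since R1 and R2 are not assigned to replicates, R1 alone and R2 alone stand in for leaving out a replicate.

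The number of members was 2271 with R1 and R2 of 5 or more, 758 with 20 or more, and 2046 with R2 alone of 10 or more. The share with a shared end was 7.84% at 5 or more and 4.62% at 20 or more. It rose to 13.6%, 23.3% and 25.0% when ends within 1, 5 and 10 bases counted, and was 0.0785% for both ends. The geometric mean of the spans was 1570.9 bases. The median count was 31 at 5 or more, 128 at 20 or more, 48 with R1 alone, 36 with R2 alone, 46 with a sum of 20 or more and 73 with 1 member per locus. A contig at both ends was seen for 95.1%, 98.2% and 94.4% at 5 or more, at 20 or more and with R2 alone. The share past 2-fold between R1 and R2, 14.4% as reported, was 20.1% at 5 or more, 8.97% at 20 or more, 28.7% with R1 alone, 36.0% with R2 alone, 28.0% with the sum and 18.4% with no scaling. It was 35.8% past 1.5-fold and 1.26% past 4-fold. The length-matched share was 30.2% at 5 or more, 58.2% at 20 or more, 37.2% with R1 alone, 32.2% with R2 alone, 37.5% with the sum, 51.4% with 1 member per locus and 33.6% when both neighbours were needed. The share of these placed to the left was 99.2% with 1 member per locus, and lay between 97.8% and 98.6% under the other alternatives. The share on the plus strand lay between 57.0% and 60.0%. The cause of the moves was not tested, except that thresholds on R1, R2 or their sum set the counts by construction.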

Other observations

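Rows with both flags at 0 outside the members show how far the left placement extends. On chromosome X, 18 of the 35 junctions with 10 or more reads in R1 and in R2 were length-matched (51.4%), and 16 of 17 with a single offset lay to the left. On chromosomes 1 to 19, 12655 rows had a smaller count of 1 to 9, and 470 (3.71%) were length-matched, of which 411 lay to the left, 15 at the annotated place and 37 to the right. Of the 186789 rows with R1 or R2 at 0, 693 (0.371%) were length-matched, with 495 to the left, 8 at the place and 169 to the right.

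Members per 1000 flag A 1 junctions of the same support ran from 9.14 on chromosome 18 to 20.4 on chromosome 13. Of the 62 members on chromosome 13, 15 had both ends in the range of 1 gene, Slc34a1.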
